A study of Mus musculus with 12 samples.

Results

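Magnesium transport genes were described in livers of mice exposed to low-dose cadmium (LDC) from before birth. The set holds 9 of the 18193 genes that the array platform names alone (Slc41a1, Slc41a2, Slc41a3, Cnnm2, Cnnm3, Cnnm4, Trpm7, Mrs2 and Magt1). They are read by 23 probe sets, each a group of short oligonucleotides that together give 1 signal. The probe sets of a gene are numbered here from the brightest (probe set 1) to the dimmest. The set was chosen by a measured value, the lower signal of Slc41a2 with cadmium. The other 8 genes were added as known magnesium transporters, with earlier results of these data known. The differences of Slc41a2 with LDC are therefore given below as a description.

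The mice were C57BL/6J, their livers were sampled at 30 weeks of age, and each combination of sex and exposure (control or LDC) had 3 arrays. Control mice drank water. LDC mice drank water with 100 nM cadmium chloride, which their dams had received from 1 week before mating, and all mice had the standard diet of the facility. No gene was altered in any group. The labels give the arrays of 1 group as biological replicates. No source used here ties them to litters or cages, so mice were treated as independent. Arrays are named by group and by the replicate number of the labels.

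Magnesium is bound by ATP and by most enzymes that use it, and cells set its level with channels, exchangers and carriers. TRPM7 is a channel fused to a protein kinase that lets magnesium, zinc and other divalent metals into the cell. The CNNM proteins and the SLC41 family move magnesium across the plasma membrane or the membranes of organelles, MRS2 is the channel of the inner mitochondrial membrane, and MAGT1 is a subunit of the oligosaccharyltransferase complex to which magnesium uptake has also been assigned. Cadmium is a divalent metal as well, and metallothioneins, the small cysteine-rich proteins encoded by Mt1 and Mt2, bind it in liver.

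Values are MAS5 signals on a linear scale, and a difference is a difference in mean log2 signal. All 12 arrays had the same trimmed mean signal, and replicate arrays correlated with r between 0.914 and 0.941 on the log2 scale across the tested probe sets. Control female 2 was closer to the LDC females (mean r = 0.937) than to the other control females (mean r = 0.926), and it was the 1 array of 12 with such an order. Xist, the RNA of the inactive X chromosome, read 16258 to 18731 on the female arrays and 72.3 to 134 on the male arrays through its brightest probe set. All 6 hepatocyte markers (Alb, Apoa1, Ttr, Tat, Cps1 and Fgb) lay above the filter on dim signals, and their summed signal was 257461 to 291482 in females and 276178 to 314344 in males. Of the 23 probe sets, 19 passed that filter, a mean log2 signal at or above the 40th percentile over all arrays (a signal of 48.6), and they cover all 9 genes. The 4 dim ones were 1 of the 2 probe sets of Slc41a1, 1 of the 3 of Slc41a3 and 2 of the 3 of Cnnm4.

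Slc41a2, a magnesium transporter of the solute carrier family 41, has 1 probe set on this array. Its signal was 1749, 1662 and 2448 in control females 1 to 3 and 589, 564 and 468 in LDC females 1 to 3. All LDC females lay below all control females, and below every male array too. In males it was 1241, 2123 and 2323 in controls 1 to 3 and 1315, 1365 and 1432 in LDC mice 1 to 3. The male groups overlapped, since control male 1 read lower than each LDC male.

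In group means, Slc41a2 measured 1953 ± 431 (SD, n = 3) in control females, 1896 ± 576 in control males, 1371 ± 58.6 in LDC males and 540.4 ± 63.6 in LDC females. Neighbours in this order overlapped except for the last step, from LDC males to LDC females. The log2 difference with LDC was -1.84 (standard error 0.21) in females, a 3.58-fold lower signal, and -0.42 (standard error 0.21) in males. The male difference minus the female difference was 1.42 (standard error 0.30). Leaving out each of the 12 arrays in turn moved the female difference between -1.94 and -1.66, with -1.94 as the value without control female 2, and the male difference between -0.70 and -0.24. These are the values by which the set was chosen, so no test is given for them.

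The family relatives of Slc41a2 did not share this pattern in each of their probe sets. Slc41a1, a sodium-dependent magnesium exchanger of the plasma membrane, measured 300.1 ± 60.8 (SD, n = 3) in control females and 245 ± 79.6 in LDC females through its brighter probe set. In males it measured 345 ± 65.8 in controls and 256 ± 47.8 in LDC mice, and the groups overlapped in either sex. Its log2 differences were -0.32 in females (adjusted p = 0.775 from limma) and -0.43 in males (adjusted p = 0.624).

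Slc41a3, the member of the family assigned to magnesium export from mitochondria, was read by a pair of probe sets above the filter, which disagreed in males. With probe set 1 the signal was 254, 216 and 325 in control females 1 to 3 and 157, 119 and 193 in LDC females 1 to 3. In males the same probe set read 185, 187 and 183 in controls and 220, 307 and 372 in LDC mice. Thus all LDC arrays lay below the controls in females and above them in males. The log2 differences were -0.77 in females (standard error 0.28, adjusted p = 0.414 from limma) and 0.66 in males (standard error 0.28, adjusted p = 0.427). The male difference minus the female difference was 1.43 (standard error 0.39, adjusted p = 0.204). With probe set 2 the signal was 117, 105 and 70.0 in control females and 46.8, 75.7 and 25.3 in LDC females, with 1 LDC array above the lowest control. In males this second probe set read 168, 130 and 174 in controls and 96.4, 108 and 92.3 in LDC mice, with all LDC arrays below the controls. Its log2 differences were -1.08 in females (adjusted p = 0.512 from limma) and -0.66 in males (adjusted p = 0.690). Slc41a3 was thus lower with LDC in females through either probe set, by values that did not pass the test, while its direction in males depended on the probe set.

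**Figure D1:**
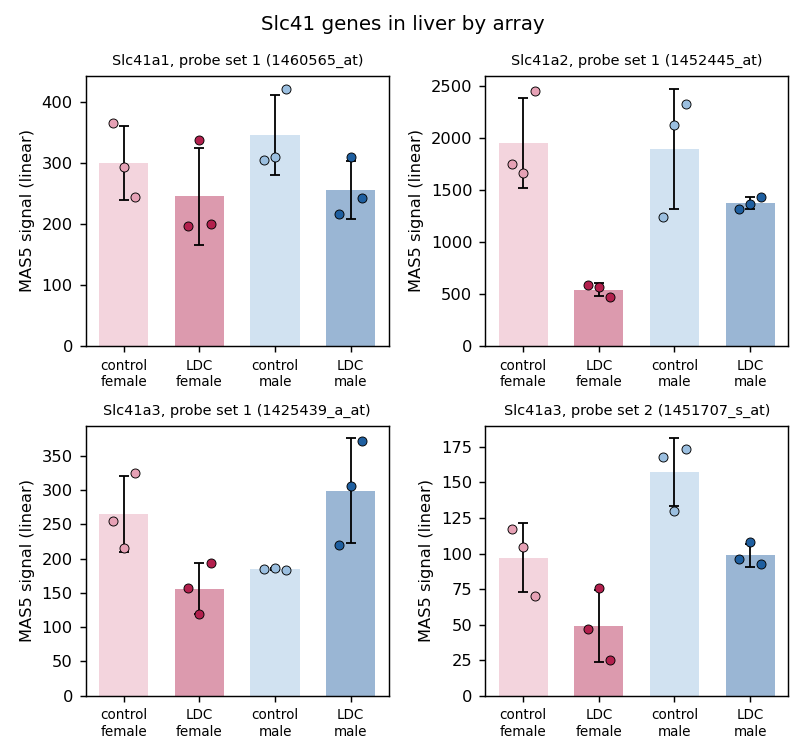
MAS5 signal on a linear scale (y axis) of the Slc41 genes in the 4 groups (x axis), 1 panel per probe set; each point is 1 array of 3, a bar gives the mean and a whisker the SD. LDC females of Slc41a2 average 540.4 against 1953 in control females, and Slc41a3 in males stands higher with LDC through probe set 1 and lower through probe set 2.

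The promoters of the Slc41 genes were searched for the core letters of the metal response element, the DNA site through which the zinc-sensing factor MTF-1 acts on metallothionein genes. The search took TGCACNC and TGCGCNC (N is any base, both strands) from 250 bases before to 50 after the RefSeq start of each gene (GRCm38.p6). Each of the 3 Slc41 genes held 1 match, and 1 of the 4 matches of Mt2 is shown for reference. Sequences run 5′ to 3′ on the strand of the gene, capitals mark the matched letters (the motif reads on the opposite strand), and the matches begin at -231, -35, -210 and -50 from the start in the order shown.

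Slc41a1 (chr1:131827769-131827798, + strand): gtgggaactcagGAGCGCAgcacccgcccg
Slc41a2 (chr10:83337835-83337864, - strand): ggcctcccagaaGAGCGCAacgaacgactc
Slc41a3 (chr6:90619024-90619053, + strand): agcccatggcacGTGTGCAgaggacacaga
Mt2 (chr8:94172556-94172585, + strand): tggggggagggcGTGTGCAggctctgtccc

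Of the 9 genes, 8 had a promoter in the RefSeq table, and 6 of these held a match. Among all 32851 promoter windows of this length 25.7% held at least 1, and the match of Slc41a2 is 1 occurrence against 4 in Mt2 and 3 in Mt1. The arrays do not measure binding at these letters.

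Mt2 was among the genes with the highest correlation with Slc41a2 over all arrays. Over the 12 arrays and 12819 candidate genes, each given by its brightest probe set, the highest Pearson correlations with Slc41a2 on the log2 scale were those of Dyrk2 (r = 0.902), Dusp2 (0.895), Ldha (0.887), Stat3 (0.879) and Mt2 (0.872). The arrays share their 4 groups, so these values largely compare group means. Among those means is the low signal of LDC females by which Slc41a2 was chosen. After subtraction of the group means the correlations were -0.32 for Dyrk2, 0.66 for Dusp2, 0.72 for Ldha, 0.65 for Stat3 and 0.69 for Mt2. Mt2 averaged 13425 in control females, 728 in LDC females, 9372 in control males and 21023 in LDC males. In females both genes were lower with LDC, whereas in males Mt2 averaged higher and Slc41a2 lower with LDC. Of the other 8 magnesium genes, the correlation with Slc41a2 was highest for Slc41a3 (r = 0.539, 0.18 after subtraction) and lowest for Magt1 (r = -0.48, 0.17 after subtraction).

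**Figure D2:**
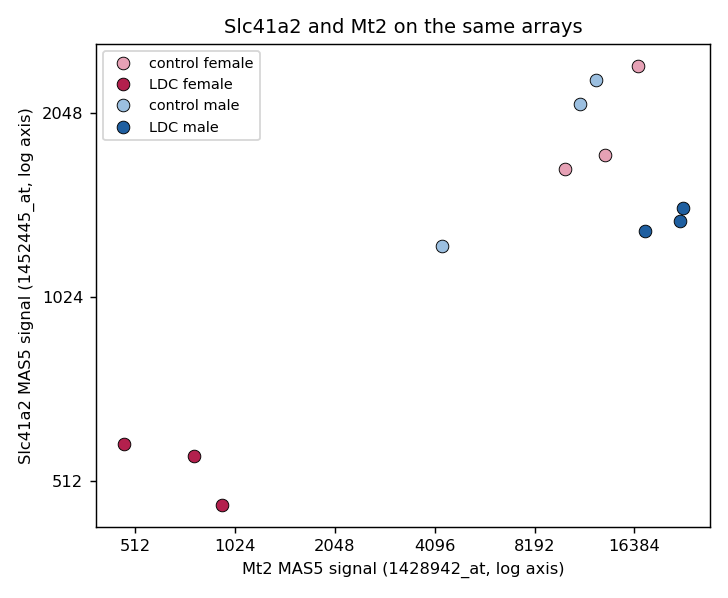
MAS5 signal of Slc41a2 (y axis, log scale) against that of Mt2 (x axis, log scale), 1 point per array (12 arrays) coloured by group. The 3 LDC females lie apart at low signals of both genes, and the 3 LDC males have the highest Mt2 signals with Slc41a2 between 1315 and 1432.

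Some markers of blood cells changed with LDC as well. The 6 neutrophil markers (S100a8, S100a9, Ngp, Camp, Ltf and Elane) summed to 3131–5896 in control and 647–971 in LDC females, and to 1120.4–1535 in control and 3045–3324 in LDC males. Of the 4 above the filter, 3 fell in LDC females, where 0.122% of all tested probe sets passed. Their log2 differences were -3.17 for S100a8, -2.75 for S100a9 and -1.75 for Ngp (limma, highest adjusted p = 0.0404). Ltf gave -0.96 in females (adjusted p = 0.830 from limma), and its groups overlapped. S100a8 rose in LDC males (1.43, adjusted p = 0.0178 from limma), where 0.278% of all tested probe sets passed. In males S100a9, Ngp and Ltf gave 1.29, 1.24 and 1.01 and did not pass (limma, adjusted p = 0.188, 0.140 and 0.795). Camp and Elane were under the filter. Of the lymphocyte markers, 5 of 6 were measured (Cd3e, Cd3g, Cd79a, Ms4a1 and Jchain), summing to 1906–3726 in control and 570.3–926 in LDC females, and to 1241–1519 in control and 1705–2670.4 in LDC males. The largest part of that sum on each array was Jchain, a gene of antibody-secreting cells, which fell in LDC females (-2.36, adjusted p = 0.0026 from limma). The brighter probe set of Ms4a1 gave -0.14 in females (adjusted p = 0.938) and -0.03 in males, and Cd3g gave -0.92 (adjusted p = 0.527) and 0.04, while Cd3e and Cd79a were under the filter. The summed markers of Kupffer cells, sinusoidal endothelium, stellate cells and bile duct cells overlapped between LDC and control females. In males, Kupffer cell markers summed to 12404–12846 in control and 18474–25707 in LDC mice. Of these 6 markers limma called 0 in males (smallest adjusted p = 0.467, for Csf1r), against 0.278% of all tested probe sets. In tissue RNA, fewer cells of a type and less RNA per cell cannot be told apart, and the part of blood cells or Kupffer cells in the signals of the magnesium genes was not tested.

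Magt1 read higher in LDC females through both of its probe sets. With probe set 1 the signal was 3341, 3928 and 4010.5 in control females 1 to 3 and 4655, 4951 and 5047 in LDC females 1 to 3. All LDC females lay above all control females, with no overlap. In males it was 4580.03, 4336 and 5116 in controls and 4908, 4038 and 4228 in LDC mice, and the groups overlapped. The log2 differences were 0.38 in females (standard error 0.11, adjusted p = 0.242 from limma) and -0.09 in males (adjusted p = 0.831). Probe set 2 read 1067 to 1657 in control females and 1855 to 2080.08 in LDC females, again with no overlap. Its log2 differences were 0.57 in females (standard error 0.16, adjusted p = 0.226 from limma) and 0.04 in males (adjusted p = 0.963). Subtracting the female from the male difference gave -0.47 for probe set 1 and -0.54 for probe set 2 (adjusted p = 0.313 and 0.426). The probe sets of Magt1 thus gave the same order of groups in females, by differences that did not pass the adjusted test.

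Mrs2, the mitochondrial magnesium channel, was read by a pair of probe sets that gave different pictures. With probe set 2 the signal was 358, 302 and 335 in control females 1 to 3, 276, 317 and 315 in LDC females, 266, 386 and 275 in control males and 148, 133 and 212 in LDC males. The LDC males lay below all of the other 9 arrays. The log2 difference was -0.91 in males (standard error 0.24, adjusted p = 0.155 from limma) and -0.13 in females (adjusted p = 0.916). With probe set 1 the male arrays overlapped, at 259–334 for controls and 263–348 for LDC, with a log2 difference of 0.10 (adjusted p = 0.918). In females probe set 1 gave -0.15 (adjusted p = 0.883). The lower signal in LDC males was thus seen through 1 of the 2 probe sets of Mrs2.

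Trpm7, the channel-kinase, was read by 4 probe sets, whose differences with LDC had different signs. With probe set 3 the signal was 275, 377 and 434 in control females 1 to 3 and 493, 585 and 650.4 in LDC females 1 to 3. In males the same probe set read 450.4, 407 and 494 in controls and 591, 764 and 753 in LDC mice. LDC arrays lay above controls in either sex, which no other tested probe set of the 9 genes showed in the same direction in both sexes. Of all tested probe sets, 0.988% had no overlap in either sex in the same direction. Its log2 differences were 0.69 in females (standard error 0.20, adjusted p = 0.262 from limma) and 0.64 in males (standard error 0.20, adjusted p = 0.267). With probe set 4, LDC females read 258 to 319 and control females 373 to 615, a log2 difference of -0.64 (adjusted p = 0.434), and the male groups overlapped. With probe set 2, LDC males read 756 to 930.5 and control males 1082 to 1102, a log2 difference of -0.34 (adjusted p = 0.545), and the female groups overlapped. Probe set 1 of the gene averaged 1800 ± 304 (SD, n = 3) in control females, 1763 ± 94.4 in LDC females, 1858 ± 411 in control males and 2105 ± 167 in LDC males, with log2 differences of -0.02 and 0.20. No single direction with LDC can be given for Trpm7 from these probe sets.

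**Figure D3:**
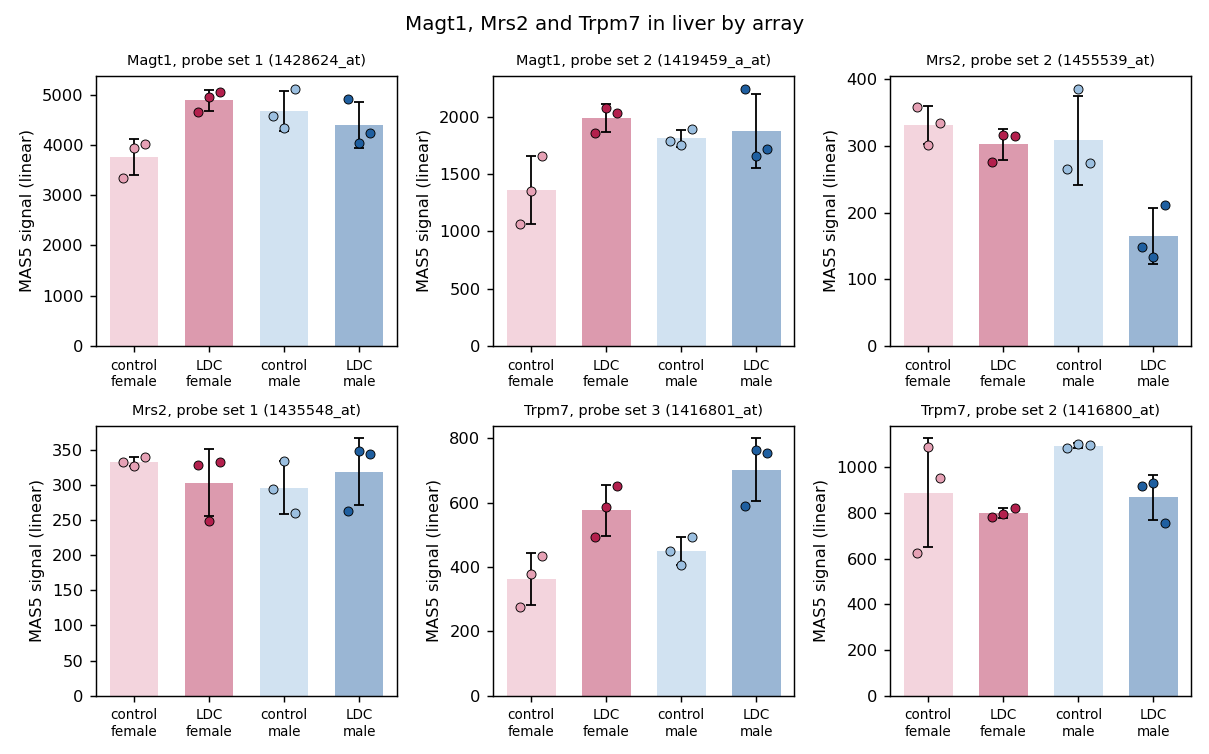
MAS5 signal on a linear scale (y axis) of Magt1, Mrs2 and Trpm7 in the 4 groups (x axis), with 2 probe sets per gene; each point is 1 array of 3, a bar gives the mean and a whisker the SD. LDC females lie above control females in both panels of Magt1, LDC males lie below the other arrays in 1 of the 2 panels of Mrs2, and the panels of Trpm7 go opposite ways.

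The CNNM genes encode membrane proteins with a cystathionine beta-synthase domain that bind magnesium and ATP, and Cnnm4 and Cnnm3 are direct neighbours in the genome, with 0 annotated genes between them. Cnnm2 averaged 181 ± 70.1 (SD, n = 3) in control females, 239 ± 22.6 in LDC females, 272 ± 36.7 in control males and 316 ± 141 in LDC males through probe set 1, with overlap in either sex. Through probe set 2 it read 80.3, 69.8 and 38.9 in control females and 112, 175 and 117 in LDC females, with all LDC females above, a log2 difference of 1.13 (standard error 0.51, adjusted p = 0.534 from limma). The 4 probe sets of Cnnm3 had log2 differences between -0.33 and -0.07 in females and between -0.04 and 0.46 in males, and LDC and control arrays overlapped for each. The brightest of them averaged 374 ± 57.1 (SD, n = 3) in control females, 347 ± 72.7 in LDC females, 359 ± 36.1 in control males and 355 ± 85.7 in LDC males. Cnnm4 was dim throughout, since its 1 probe set above the filter read 24.6 to 229 and had log2 differences of 0.34 in females (adjusted p = 0.924) and 0.33 in males (adjusted p = 0.919). For Cnnm3 and Cnnm4, LDC and control arrays thus overlapped in either sex through every probe set above the filter.

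In counts over the set, 1 of the 19 tested probe sets (that of Slc41a2) passed an adjusted p under 0.05 for LDC in females, against 0.122% of all 27022 tested. Nothing is read from that count, because this contrast chose the gene. For the other 18 probe sets limma called 0 in either sex, with smallest adjusted p-values of 0.226 in females and 0.155 in males, where 0.278% of all tested probe sets passed in males. At an unadjusted p under 0.05 there were 7 of these 18 in females and 3 in males, against 9.01% and 10.2% of all tested. At the same level the methods' t-test gave 5 of 18 in each sex, against 7.06% of all tested in females and 9.08% in males, and 0 of 18 after adjustment. LDC and control arrays did not overlap for 6 of the 18 in females (4 above and 2 below) and 5 in males (2 above and 3 below), where 13.9% and 16.5% of all tested probe sets had no overlap. The median log2 difference over the 18 was -0.11 in females and 0.10 in males, against 0.0056 and 0.00097 over all tested. For the difference between the LDC effects of the sexes, limma called 0 of the 18 other probe sets (smallest adjusted p = 0.204), where 0.178% of all tested probe sets passed. At an unadjusted p under 0.05 there were 4 of the 18 for this difference, against 10.3% of all tested. The set as listed thus had no common direction, and the differences of its members in females ran from -1.84 to 1.13.

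**Figure D4:**
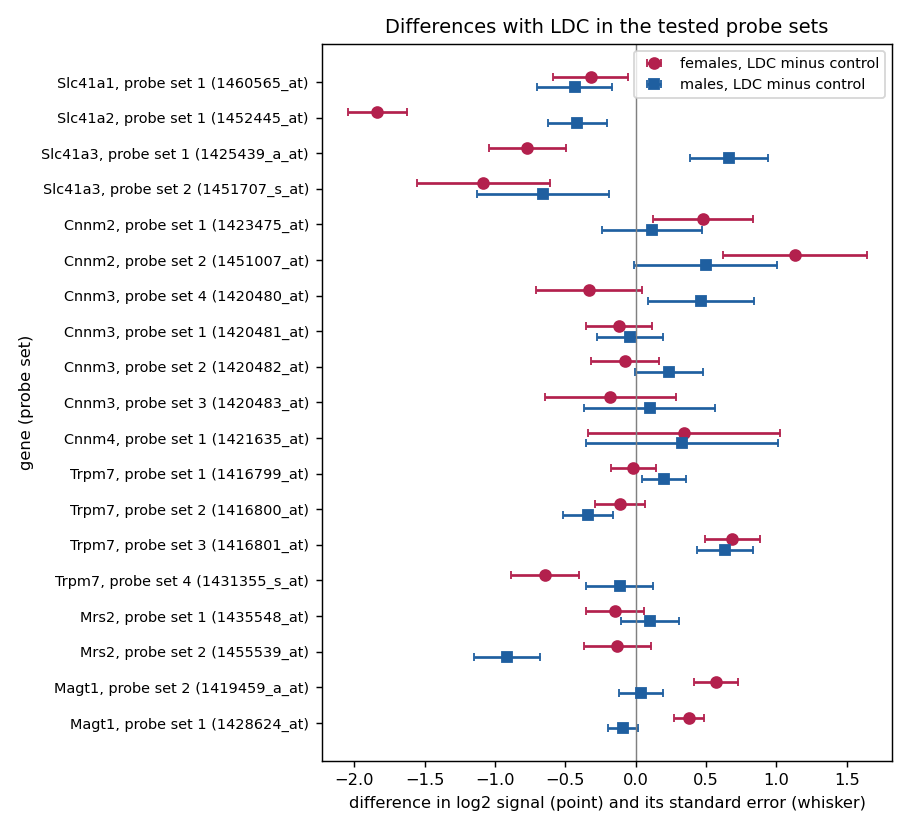
Difference in log2 signal with LDC (x axis, LDC minus control) in females (circles) and males (squares) for the 19 tested probe sets (y axis); whiskers are standard errors from limma. Slc41a2 in females stands at -1.84, and the other differences lie between -1.08 and 1.13.

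The sexes were compared over both exposures, a contrast that is orthogonal to the LDC contrasts in this balanced design. Of the 19 probe sets, 1 passed, where 13.3% of all tested probe sets did. It was that of Slc41a2, with a log2 difference of 0.64, male minus female (standard error 0.15). This average joins -0.07 in control mice and 1.35 in LDC mice, so it holds the low signal of LDC females by which the gene was chosen, and no test is given for it. Of the other 18 probe sets limma called 0. There were 3 at an unadjusted p under 0.05, against 26.4% of all tested, and the methods' t-test gave 1 at that level, against 23.9% of all tested, and 0 after adjustment. The smallest adjusted p among them was that of Mrs2 through probe set 2, with a log2 difference of -0.51 (adjusted p = 0.0577 from limma), made of -0.12 in control and -0.90 in LDC mice. It passed in 4 of 20 alternatives. Slc41a3 followed through probe set 2, with 0.93 (adjusted p = 0.0850), made of 0.72 in control and 1.14 in LDC mice, and passed in 2 of 19 alternatives. For Magt1 the sexes differed by 0.32 in control mice and -0.16 in LDC mice through probe set 1.

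Of 24 other genes of magnesium handling, 22 have a probe set of their own on the array and 16 have one above the filter (27 of 43 probe sets). They were listed from general knowledge of these genes, but with earlier results of these data known. The calls below were therefore not made on an independent list. Nipal1, a gene of the NIPA-like family of magnesium transporters, rose in LDC males through both of its probe sets. With probe set 1 its signal was 450.1, 93.3 and 375 in control males 1 to 3 and 1047, 1017 and 1425 in LDC males 1 to 3. In females it was 2400, 1839 and 2210.3 in controls and 1041, 1680 and 1603 in LDC mice. Control males were the lowest group, and LDC males reached the range of LDC females. The log2 difference in males was 2.20 (standard error 0.42, adjusted p = 0.0462 from limma) and that in females -0.60 (adjusted p = 0.724). With probe set 2 the signal was 196, 116 and 152 in control males and 539.7, 480.2 and 537 in LDC males, a log2 difference of 1.78 (standard error 0.28, adjusted p = 0.0191 from limma). In females this probe set gave -0.32 (adjusted p = 0.793).

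The male calls of Nipal1 depended on which arrays entered. That of probe set 2 ended without control male 2 or 3 or LDC male 1, 2 or 3 (adjusted p = 0.0822, 0.0568, 0.0972, 0.0525 and 0.0965, log2 difference 1.59 to 1.83). That of probe set 1 ended without control female 2 or 3, LDC female 1, 2 or 3, control male 3 or LDC male 1, 2 or 3 (adjusted p up to 0.223, log2 difference 2.04 to 2.49), and its log2 difference was 1.48 (adjusted p = 0.0210) without control male 2. Both calls ended with eBayes without a trend (adjusted p = 0.271 and 0.161) and with the methods' t-test (0.530 and 0.344). That of probe set 1 also ended with quantile normalization (adjusted p = 0.0592) and with the replicate number as a block (0.0524). The male difference minus the female difference was 2.80 (adjusted p = 0.0937) and 2.10 (adjusted p = 0.0584), and it passed in 2 of 19 alternatives for each probe set. In control mice Nipal1 was lower in males than in females with differences of -3.09 and -2.27 on the log2 scale, and in LDC mice the differences were -0.29 and -0.17.

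Over this list, 2 of 27 probe sets passed for LDC in males, both higher and both of Nipal1, against 0.278% of all tested. Nothing is read from that count, because the list was made with earlier results of these data known. In males 3 of 27 had an unadjusted p under 0.05 from limma, against 10.2% of all tested. The methods' t-test gave 2 at that level, against 9.08%, and 0 after adjustment. For LDC in females limma called 0 (smallest adjusted p = 0.428), against 0.122% of all tested. There 1 of 27 had an unadjusted p under 0.05, against 9.01% of all tested. The methods' t-test gave 1 at that level in females, against 7.06%, and 0 after adjustment. The median log2 difference with LDC was 0.12 in males and 0.05 in females. Between the sexes over both exposures 6 of 27 passed, against 13.3% of all tested, with 2 higher and 4 lower in males and 2 of the 6 from Nipal1. Besides Nipal1 (-1.69 and -1.22, adjusted p = 0.00152 and 0.000887), these were Tmem94, a membrane protein described as a magnesium pump (-0.68, adjusted p = 0.0193), Ptp4a3, a phosphatase that binds CNNM proteins (-0.93, adjusted p = 0.0292), Nipa2, a magnesium transporter (0.35, adjusted p = 0.0267), and Arl15, a small GTPase that binds CNNM proteins (0.40, adjusted p = 0.0441). The other probe sets of Nipa2 and Arl15 gave 0.17 (adjusted p = 0.302) and 0.19 (adjusted p = 0.688). Leaving out 1 array ended the call of Tmem94 in 1 of 12 fits (without LDC female 1, adjusted p = 0.0512), of Ptp4a3 in 7, of Nipa2 in 8 and of Arl15 in 10. The count of 6 ran from 3 to 8 when 1 array was left out (3 without LDC female 2, control male 2, control male 3, LDC male 1 or LDC male 3, and 8 without control female 3) and from 3 to 9 under the other alternatives. Trpm6, the close relative of Trpm7 known from kidney and gut, passed in none of the 4 contrasts through either probe set.

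**Figure D5:**
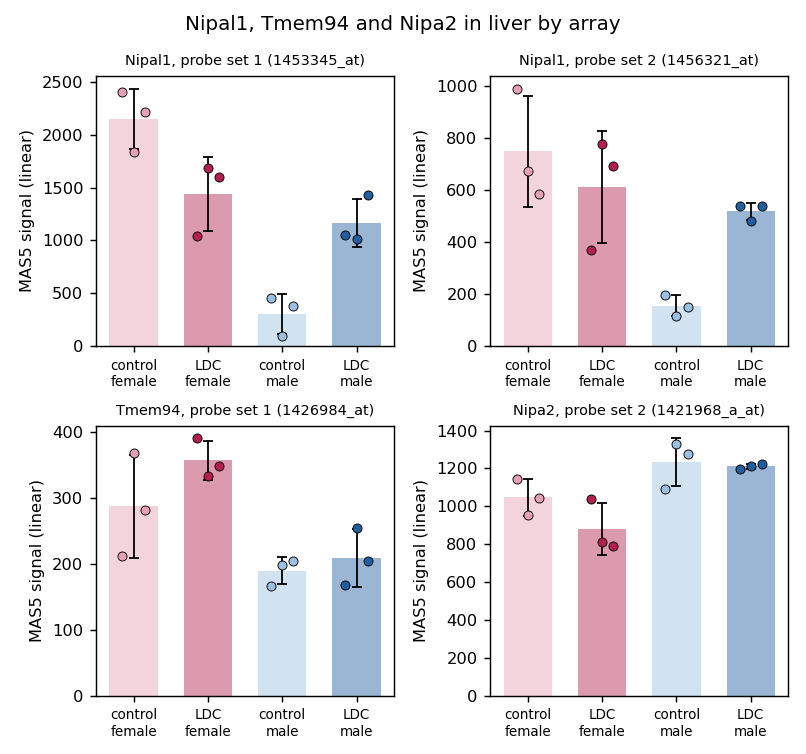
MAS5 signal on a linear scale (y axis) of Nipal1 (2 probe sets), Tmem94 and Nipa2 in the 4 groups (x axis); each point is 1 array of 3, a bar gives the mean and a whisker the SD. Control males average 306 and 155 for Nipal1 and LDC males 1163 and 519, against 2150 and 750.0 in control females.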

How the data were processed

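Liver RNA of 12 mice was labelled with a 3′ kit and hybridised to Affymetrix mouse genome arrays, 1 array per mouse. The authors computed the deposited intensity values, on a linear scale, with MAS5 in GeneSpring. They carry no detection calls, and each array had a trimmed mean of 500.0. Arrays were mapped to groups by their labels, and 0 value columns lacked a sample. Depth does not apply to arrays, so the number of arrays limits the precision.

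Of 45101 probe sets, 64 controls were left out. The platform table names 1 gene for 34958, several for 932 and none for 9211. Symbols were updated through the gene ID to a RefSeq table of GRCm38.p6. Intensities were log2 transformed, the 27022 probe sets at or above the 40th percentile of mean log2 signal were tested, and limma 3.58.1 (R 4.3.3) fitted 1 mean per group (8 residual degrees of freedom) with an intensity trend in eBayes. P-values were adjusted over all 27022 by Benjamini and Hochberg. Genes are given by their brightest probe set with the others beside it. The members and lists were chosen with earlier results of these data known. Ptp4a1 was not analysed here. The alternatives were no filter, the 60th percentile, quantile normalization, median centring, log2(signal + 32), eBayes without a trend, the t-test that the methods name, a replicate block and leaving out each array. The methods name that t-test for body composition and metabolic results, and no test for the arrays. For sex it compared all male with all female arrays and ignored exposure, unlike the limma contrast. The fit was tested on artificial data with known changes. Promoters came from RefSeq, and figures from matplotlib 3.10.9.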

Additional observations from a re-analysis of the deposited data

Results flagged for a closer look

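Slc41a3 was singled out through probe set 1 because all LDC females lay below the control females while all LDC males lay above the control males. No overlap, in either direction, was seen for 13.9% of all tested probe sets in females and 16.5% in males. Through probe set 1 of Slc41a3 the male minus female difference of the LDC effects was 1.43 on the log2 scale. Its adjusted p of 0.204 from limma did not pass. Through probe set 2 all LDC males lay below the control males, and that difference was 0.42 (adjusted p = 0.874 from limma). Nipal1 was singled out for the same reason through probe set 1, with the directions in females and males as for probe set 1 of Slc41a3. Its male minus female difference was 2.80 (adjusted p = 0.0937 from limma), which did not pass either. Groups of 3 arrays are too small for a test of single outlying arrays, so none was made.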

How the results depend on the processing

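Of the 19 probe sets, the count passing for sex over both exposures was 2 under each of median centring, eBayes without a trend, a 60th percentile filter and no filter, 0 with the methods' t-test, and 1 to 2 when 1 array was left out (2 without LDC female 2, control male 2 or LDC male 3). The second probe set was of Mrs2 (probe set 2), or of Slc41a3 (probe set 2) with eBayes without a trend and without LDC female 2, or a dim one of Cnnm4 (log2 difference 2.18, adjusted p = 0.0353) with no filter. The count for LDC in females was 0 with the methods' t-test and 1 in each of the other 19 alternatives. Each of these calls was that of Slc41a2, by which the set was chosen, so nothing is read from that count. The same holds for Slc41a2 within the counts for sex. The counts for LDC in males and for the male minus female difference of the LDC effects were 0 under every alternative run. Quantile normalization and median centring moved the median of all tested probe sets by at most 0.069. The replicate number as a block left the counts of the 19 at 1, 1, 0 and 0 and ended the male call of probe set 1 of Nipal1 (adjusted p = 0.0524). Same-numbered arrays deviated from their group means with correlations of -0.03 to 0.06, and 11 of 36 comparisons were closest to their own number. No pairing by number was thus seen, but groups of 3 arrays cannot exclude one. Where a group kept 2 arrays, its spread was pooled with that of the others. The cause of these changes was not tested.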
